A study of Homo sapiens with 6 samples.

Results

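The genes described here encode the WAVE regulatory complex and its relative N-WASP. They were taken as the 10 rows of the deposited count table, out of 27942, whose symbol was WASF1, WASF2, WASF3, CYFIP1, CYFIP2, NCKAP1, ABI1, ABI2, BRK1 or WASL. RNA was profiled by stranded, poly(A)-selected RNA-seq in HCT116, an established epithelial cell line from a human colorectal carcinoma. Untreated cells (NT) were compared with cells exposed for 24 h to oxaliplatin, a DNA-binding platinum drug, at 0.5 µM, the concentration that the labels call the IC50 (OXA). Each group held 3 libraries of the same line, grown in RPMI medium with serum, and the labels give no allele, transgene or other agent in either group. The labels list antibiotics in the medium, while the study's methods state that none were used. The labels do not say whether the replicates came from separate cultures, so the p-values below measure the spread between these libraries, which may be technical. The epithelial genes EPCAM, CDH1, KRT8, KRT18 and CLDN7 were abundant, while the intestinal markers KRT20 and VIL1 were low. The 7 epithelial markers summed to 72726 to 98258 normalized counts in NT and to 103352 to 115751 in OXA. Of the 6 fibroblast markers, 4 were at or under 3 counts in every library (COL1A2, DCN, LUM and PDGFRA), while COL1A1 had 107 to 273 counts. Of the 6 blood cell markers PTPRC and CD3E were at or under 3 counts, and CD68 had 152 to 237. The neuronal list was not absent: STMN2 was at 0 and RBFOX3 at 8 counts or fewer, but SYT1 had 2991 to 5854 counts, TUBB3 1237 to 3376 and MAP2 465 to 1052. The 6 neuronal markers summed to 7508 to 9147 normalized counts in NT and to 6192 to 7321 in OXA, and the part of these marker levels in the results was not tested. Libraries held 32979521 to 40967880 counts.

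WAVE proteins, encoded by the WASF genes, switch on the Arp2/3 complex, which nucleates a new actin filament on the side of an existing one and so builds the branched networks that push out lamellipodia. In resting cells a WASF protein is held inactive in a complex with a CYFIP protein, NCKAP1, an ABI protein and BRK1, until the GTP-bound form of Rac binds the CYFIP subunit. N-WASP, the product of WASL, drives the same Arp2/3 complex outside the WAVE complex, downstream of Cdc42. The CYFIP, ABI and WASF positions are each filled by one of several paralogs.

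Because the largest difference lay between a pair of close paralogs, the stretch in which CYFIP1 and CYFIP2 are most alike is shown first. Their coding sequences, each 3759 bases long, were identical at 79.0% of aligned bases. The longest run of bases shared by any of their GENCODE 44 transcripts was 36 bases, at chr15:22880006-22880041 on the minus strand in CYFIP1 and at chr5:157361470-157361505 on the plus strand in CYFIP2 (GRCh38), within 1 coding exon in each. The 100 transcript bases centred on it, the length of 1 read, are given from the canonical transcripts, with the shared run in capitals.
CYFIP1: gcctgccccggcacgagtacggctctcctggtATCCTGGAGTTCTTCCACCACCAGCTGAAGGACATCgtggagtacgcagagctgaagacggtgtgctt
CYFIP2: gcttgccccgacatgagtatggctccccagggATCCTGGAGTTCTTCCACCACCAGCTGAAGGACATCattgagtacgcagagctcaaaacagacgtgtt
Outside the capitals these windows differed at 17 bases, 7 before the run and 10 after it. No stretch of 100 bases from a CYFIP1 or CYFIP2 transcript occurred in a transcript of another gene. The same was true of the other members except WASF2, of which 3.49% of such stretches also occurred in the pseudogene WASF4P. The longest shared runs of the other pairs examined were shorter, from 14 bases between WASF1 and WASF2 to 18 between ABI1 and ABI2.

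CYFIP2 was the member that rose, and its 2 starts in the RefSeq promoter table differ in sequence. GENCODE 44 lists 25 transcripts of the gene, whose starts were not compared. The 250 bases before each of the 2 RefSeq starts (GRCh38.p14, plus strand) are given with CpG dinucleotides in capitals.
CYFIP2 chr5:157265873-157266122: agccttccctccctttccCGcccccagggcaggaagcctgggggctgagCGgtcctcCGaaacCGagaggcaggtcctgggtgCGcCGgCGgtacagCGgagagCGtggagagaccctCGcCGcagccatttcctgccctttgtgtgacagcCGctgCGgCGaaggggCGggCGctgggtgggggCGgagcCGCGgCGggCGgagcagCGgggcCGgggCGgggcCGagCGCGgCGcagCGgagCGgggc
CYFIP2 chr5:157269074-157269323: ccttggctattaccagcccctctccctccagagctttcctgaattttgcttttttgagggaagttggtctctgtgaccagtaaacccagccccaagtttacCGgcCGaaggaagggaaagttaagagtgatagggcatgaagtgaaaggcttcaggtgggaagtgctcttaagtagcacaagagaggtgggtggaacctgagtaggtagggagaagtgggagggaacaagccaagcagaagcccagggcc
The first window held 30 CpG dinucleotides with a GC content of 76.4%, and the second held 2 with a GC content of 52.4%. The table gives counts per gene, so the use of these starts was not analysed here. RefSeq promoters of 300 bases, 250 before and 50 after the start, matched 9 of the 10 members, with 14 promoters in all, and WASF2 had no entry. They were searched on both strands for the p53 half-site, since oxaliplatin damages DNA, and for GGAATG, the core of the site bound by the TEAD partners of YAP and TAZ, which the study followed. Only exact matches to the half-site RRRCWWGYYY were counted (R is A or G, W is A or T, Y is C or T). The p53 half-site occurred in 0 of the 14, where 6.63% of all 35116 promoters of this length held it. At that share, 14 windows, some of which overlap, are too few to show a lack of sites. GGAATG occurred in 1, a CYFIP1 promoter at chr15:22980319-22980618, where 14% of all promoters held it. These letters describe only the windows searched. A contrast between starts was not particular to CYFIP2. In the windows of 300 bases, its promoters had a GC content of 76.7% with 35 CpG dinucleotides and 51% with 3. The promoters of CYFIP1, with a log2 fold change of 0.085, ranged from 51.7% with 10 to 76.3% with 31. GC content was also high at WASF3, NCKAP1 (75.3%), ABI2 (77.3%) and WASL (75.7%), and lower at BRK1, WASF1 and ABI1.

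Of the 10 members, 1 was called in OXA against NT at an adjusted p under 0.05 in edgeR's quasi-likelihood test: CYFIP2 rose, and no member fell. DESeq2 and limma-voom likewise called CYFIP2 higher and 0 members lower. This was 10% of the members, against 5.07% of all 13727 genes tested (2.78% higher and 2.29% lower), and all 10 members had passed the filter on low counts. The other 9 members had log2 fold changes between -0.48 and 0.085, and 6 of the 10 lay within 0.1 of 0 on the log2 scale. The median log2 fold change of the 10 members was -0.010, and that of all genes tested was 0.023. At an unadjusted p under 0.05 there were 3 members, CYFIP2, WASL and WASF3, where 21.7% of all tested genes passed. The NT and OXA libraries of the same 3 members did not overlap (30%), where 28.9% of all genes were separated in this way. With the replicate number as a block, 3 members were called, CYFIP2 higher and WASL and WASF3 lower (30%), and the share of all genes called was then 23% (12.1% higher and 10.9% lower). In bulk RNA, fewer cells of a type and less RNA per cell cannot be told apart.

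**Figure D1:**
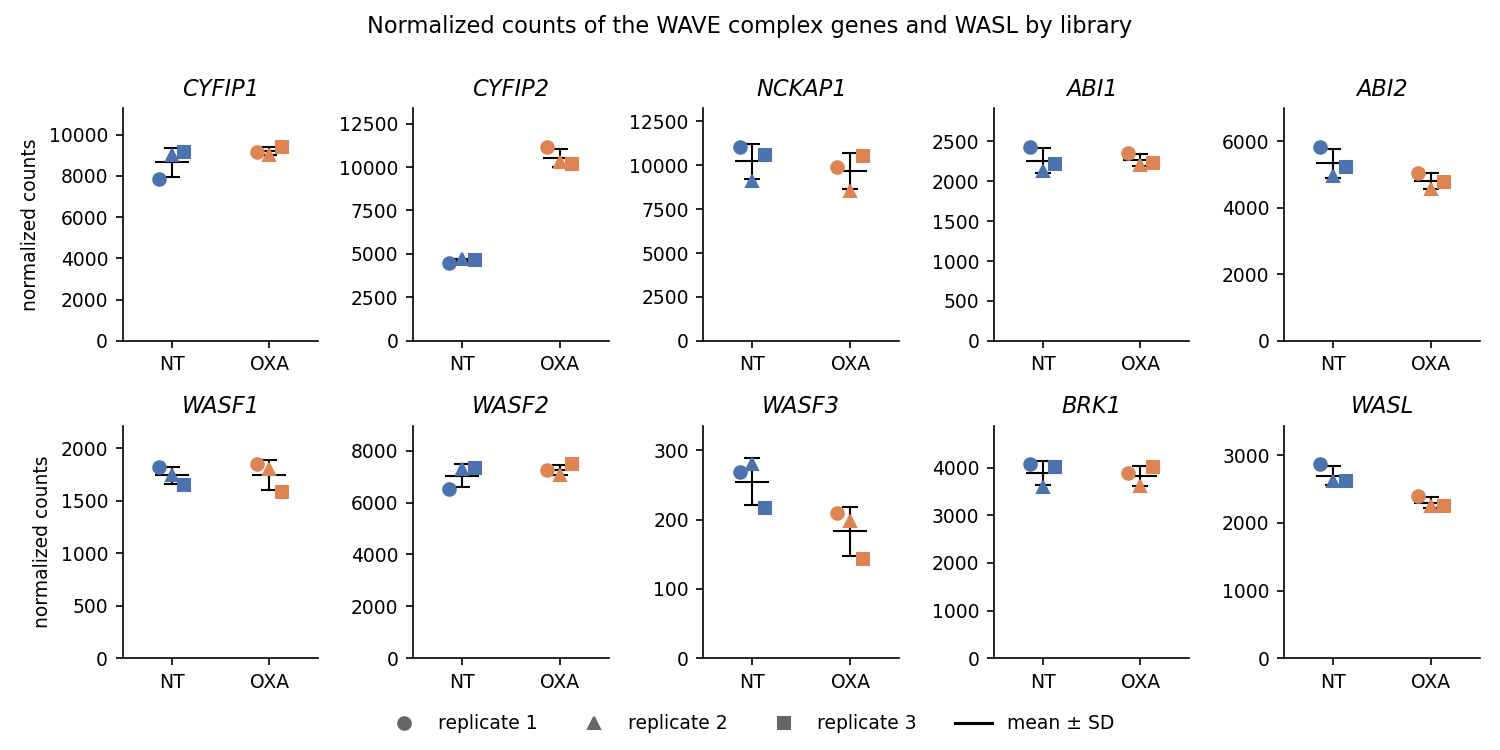
Normalized counts (scaled to the mean library, y axes from 0, each gene on its own scale) of the 10 members in the 3 NT and 3 OXA libraries; symbols mark the replicate number and bars the mean ± SD. CYFIP2 went from between 4463 and 4722 to between 10173 and 11138, WASL and WASF3 lay lower in every OXA library than in any NT library, and the other 7 genes overlapped.

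The CYFIP proteins carry the Rac-binding surface of the complex, and they also bind the translational regulator FMRP. CYFIP2 (ENSG00000055163, chr5:157266079-157395595), also named PIR121 after a transcript induced by p53, had 4463, 4722 and 4634 normalized counts in NT replicates 1 to 3, and 11138, 10317 and 10173 in OXA replicates 1 to 3. The groups were far apart, with no OXA library near any NT library. CYFIP2 was 2.29-fold higher in OXA (95% confidence interval 2.01 to 2.61), or 1.19 ± 0.082 on the log2 scale (SE, n = 3 libraries per group, edgeR adjusted p = 0.00117). It ranked 8 of 13727 by p and 211 by the absolute log2 fold change. The SD over libraries was 2.86% of the mean in NT and 4.94% in OXA, where counting error alone gives 1.46% and 0.981%. The call held in each of the 6 fits that left out 1 library, with log2 fold changes of 1.15 to 1.21 and edgeR adjusted p from 0.000405 to 0.0165. Of all genes, 8.6%, 2.16% and 1.33% were called without NT replicates 1, 2 and 3, and 0.611%, 0.908% and 1.22% without OXA replicates 1, 2 and 3. Only the omission of NT replicate 1 raised the share above the 5.07% of the main fit. That library stood apart from NT replicates 2 and 3, with a mean chi-square per gene (counts of 2 libraries against their totals) of 83.1 and 75.7. The other pairs within a group gave 19.2 to 29.6. What set NT replicate 1 apart was not tested.

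CYFIP1 (ENSG00000273749, chr15:22867052-22981063), the broadly expressed paralog, had 7856, 8986 and 9142 normalized counts in NT and 9163, 9006 and 9384 in OXA. The lowest value was that of NT replicate 1, and the remaining libraries overlapped. Its log2 fold change was 0.085 ± 0.089 (edgeR adjusted p = 0.640), and the 95% interval of 0.919-fold to 1.22-fold lay wholly below that of CYFIP2. The log2 ratio of CYFIP2 to CYFIP1 counts, which scaling a whole library cannot move, was -0.82, -0.93 and -0.98 in NT and 0.28, 0.20 and 0.12 in OXA. It was thus negative in every untreated library and positive in every treated one. The mean ratio rose by 1.11 (exact two-sided permutation p = 0.1, the smallest that 3 against 3 libraries allow, and 0.12 after Benjamini-Hochberg adjustment over 6 paralog ratios). Within same-numbered pairs of libraries the differences were 1.10, 1.12 and 1.10.

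NCKAP1 (ENSG00000061676, chr2:182909115-183038858) encodes the scaffold that holds the CYFIP subunit to the rest of the complex. It had 11021, 9104 and 10553 normalized counts in NT and 9897, 8544 and 10541 in OXA. Replicate 2 was the lowest library of both groups, and the groups overlapped. The log2 fold change was -0.082 ± 0.11 (edgeR adjusted p = 0.733), with a 95% interval of 0.786-fold to 1.14-fold. BRK1 (ENSG00000254999, chr3:10115675-10127190), the smallest subunit, had 4066, 3603 and 4004 normalized counts in NT and 3882, 3605 and 4012 in OXA. Its libraries overlapped as well, and the log2 fold change was -0.022 ± 0.089 (edgeR adjusted p = 0.918, interval 0.853-fold to 1.14-fold).

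The ABI proteins link the complex to kinases of the ABL family. ABI1 (ENSG00000136754, chr10:26746593-26861087) had 2425, 2121 and 2218 normalized counts in NT and 2347, 2205 and 2231 in OXA, a log2 difference of 0.0040 ± 0.090 (edgeR adjusted p = 0.986). ABI2 (ENSG00000138443, chr2:203328280-203447728) had 5825, 4959 and 5240 in NT and 5042, 4559 and 4792 in OXA. Its OXA value was below the NT value of the same number in all 3 pairs, although the groups overlapped. The log2 fold change of ABI2 was -0.15 ± 0.093 (edgeR adjusted p = 0.390, and 0.0735 with the replicate block, the lowest of a range up to 0.690 over the alternatives). The log2 ratio of ABI2 to ABI1 was 1.26, 1.23 and 1.24 in NT and 1.10, 1.05 and 1.10 in OXA, a difference of -0.16 without overlap (exact permutation p = 0.1, adjusted 0.12). That direction rested on the scaling: from the deposited normalized values the difference was 0.066 and the groups overlapped.

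ABI2 is also the member with the largest overlap with a neighbour on the opposite strand. Of its 23275 merged exon bases, 8870 are also exons of RAPH1, which encodes lamellipodin, itself a WAVE-binding protein. The RAPH1 difference on the log2 scale was -0.31 ± 0.11 (edgeR adjusted p = 0.146, and 0.0271 with the replicate block). The libraries were stranded, but whether the counting used strand was not given in the sources used here. CYFIP1 shares 2311 exon bases with NIPA2 (log2 fold change 0.020), ABI1 shares 206 with PDSS1 (0.16), and CYFIP2 shares 62 with ADAM19 (-0.42, edgeR adjusted p = 0.0864, and 0.00700 with the replicate block). CYFIP2 also shares 225 and 200 exon bases with 2 long noncoding RNA genes, not analysed here, and 138 with ENSG00000285868, which had at most 6 counts in any library. WASF3 shares 1976 exon bases with a long noncoding RNA gene on the other strand.

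The WASF genes encode the WAVE proteins themselves, which carry the region that binds actin and the Arp2/3 complex. WASF2 (ENSG00000158195, chr1:27404230-27490167), the broadly expressed form, had 6527, 7276 and 7324 normalized counts in NT and 7243, 7064 and 7468 in OXA. WASF1 (ENSG00000112290, chr6:110099819-110180004), best known from brain, had 1820, 1748 and 1653 in NT and 1845, 1801 and 1579 in OXA. The groups overlapped for both genes. The log2 fold changes were 0.044 ± 0.084 for WASF2 (edgeR adjusted p = 0.815, interval 0.900-fold to 1.18-fold) and 0.0011 ± 0.0995 for WASF1 (edgeR adjusted p = 0.997, interval 0.853-fold to 1.17-fold). The log2 ratio of WASF1 to WASF2 differed by -0.046 (exact permutation p = 0.7).

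WASF3 (ENSG00000132970, chr13:26557683-26688948), a WAVE gene linked to tumour cell invasion, was the least abundant member. It had 269, 280 and 216 normalized counts in NT and 209, 197 and 143 in OXA. The OXA libraries lay below the NT libraries, with a narrow gap between NT replicate 3 and OXA replicate 1. The log2 fold change was -0.48 ± 0.20 (edgeR adjusted p = 0.209), which did not pass, and with the replicate block it was -0.49 ± 0.11 and passed (adjusted p = 0.0332). Over the 13 alternatives the adjusted p of WASF3 ranged from 0.0332 to 0.407. Libraries varied by 13.3% of the mean in NT and 19.4% in OXA, against counting errors of 6.25% and 7.5%. Against the other WAVE genes in the same library, the log2 ratio of WASF3 to WASF2 was lower by 0.53 and that to WASF1 by 0.49 in OXA, without overlap (exact permutation p = 0.1 and adjusted 0.12 for each). Without OXA replicate 3 the ratio to WASF2 differed by -0.34, and from the deposited normalized values the ratios differed by -0.84 and -0.86.

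N-WASP is the nucleation-promoting factor of endocytic and junctional actin. WASL (ENSG00000106299, chr7:123681943-123749003) had 2863, 2617 and 2615 normalized counts in NT and 2391, 2253 and 2244 in OXA. All OXA libraries lay below all NT libraries, and replicate 1 was the highest of each group. The log2 fold change was -0.23 ± 0.085 (edgeR adjusted p = 0.165), or 0.851-fold with an interval of 0.742-fold to 0.976-fold. With the replicate block WASL passed (adjusted p = 0.0270) at the same log2 fold change of -0.23, and over the 13 alternatives its adjusted p ranged from 0.0270 to 0.395. The log2 ratio of WASL to WASF2 was -1.19, -1.48 and -1.49 in NT and -1.60, -1.65 and -1.74 in OXA, a difference of -0.28 (exact permutation p = 0.1, adjusted 0.12), which without NT replicate 1 was -0.18.

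The deposited normalized values differ from the raw counts by a factor that is specific to each gene and library, and how that factor was computed was not given in the sources used here. Relative to the median factor of the library, the WASF3 factor was lower in OXA than in NT by 0.36 on the log2 scale, a shift above that of 97.2% of tested genes. The ABI2 factor was higher by 0.28, above 95.8% of tested genes. The median absolute shift over all tested genes was 0.030, and that of WASL was 0.00021. With these factors as offsets in edgeR, WASF3 had a log2 fold change of -0.86 ± 0.22 (adjusted p = 0.0820), 302.8 ± 57.1 deposited normalized counts in NT and 166 ± 31.3 in OXA (SD, n = 3). For ABI2 the sign turned, to 0.12 ± 0.11 (adjusted p = 0.617). CYFIP2 stayed at 1.24 ± 0.11 (adjusted p = 0.00183), and 3.21% of all genes were called.

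**Figure D2:**
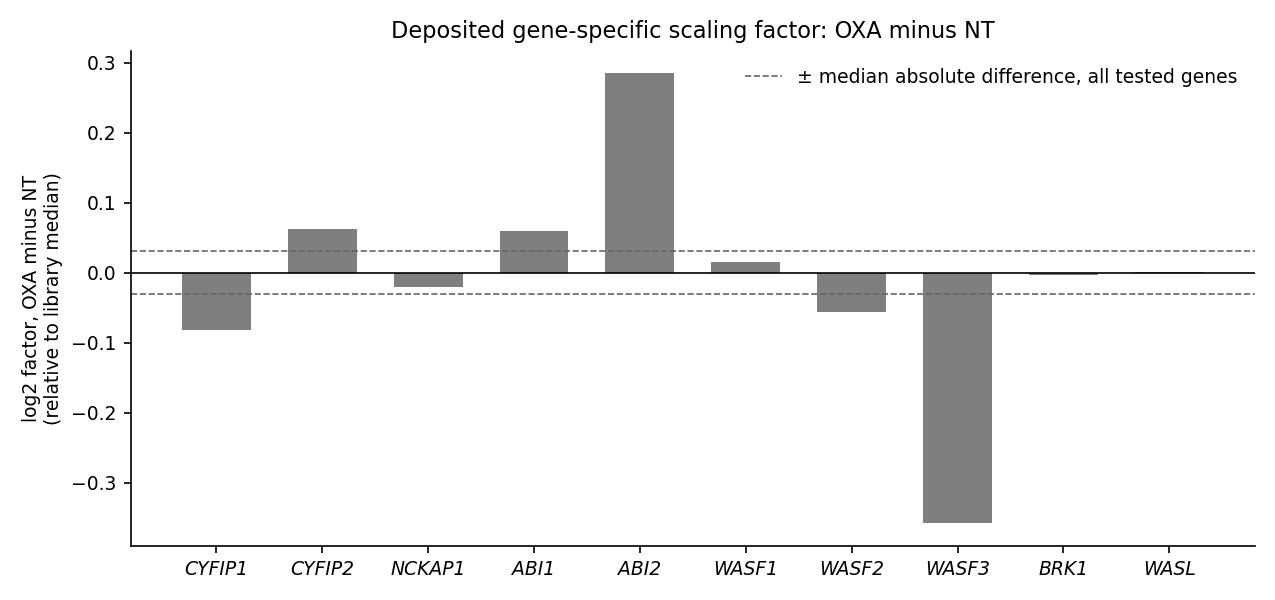
Log2 difference between OXA and NT in the deposited gene-specific scaling factor, relative to the library median, for the 10 members; dashed lines mark ± the median absolute difference of all tested genes (0.030). WASF3 (-0.36) and ABI2 (0.28) stand far outside these lines, and BRK1 and WASL lie within them close to 0.

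**Figure D3:**
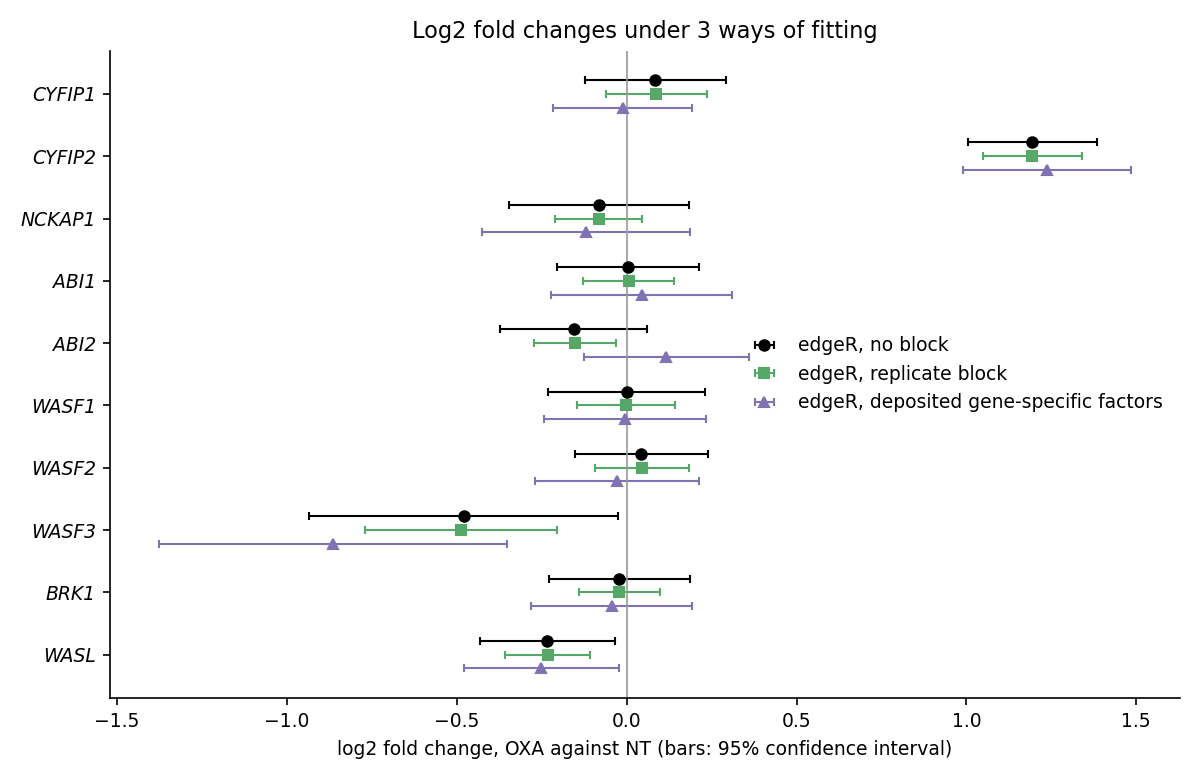
Log2 fold change of OXA against NT for the 10 members from 3 edgeR fits, with 95% confidence intervals: without a block (circles), with the replicate number as a block (squares) and with the deposited gene-specific factors (triangles). The CYFIP2 interval lies above 0 in all 3 fits, and those of WASL and WASF3 lie below 0. The ABI2 estimate lies on either side of 0, and its interval with the block lies below 0 (-0.274 to -0.0324). The intervals are per gene and not adjusted for the number of genes tested. Of these fits, WASL and WASF3 passed the adjusted threshold only with the block.

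Levels were compared between genes as normalized CPM (counts scaled to a common library size) per kilobase of merged exons. In NT the order was BRK1 (94.0 ± 6.08, SD, n = 3), WASF2 (34.4 ± 2.18), CYFIP1 (23.1 ± 1.87), WASL (17.2 ± 0.911), ABI1 (14.9 ± 1.02), WASF1 (14.8 ± 0.714), NCKAP1 (12.6 ± 1.23), CYFIP2 (12.1 ± 0.346), ABI2 (6.38 ± 0.527) and WASF3 (1.37 ± 0.182). Neighbours whose libraries overlapped were ABI1 with WASF1 and NCKAP1 with CYFIP2. In OXA, CYFIP2 stood at 27.7 ± 1.37, above CYFIP1 at 24.5 ± 0.507, and the overlapping neighbours were ABI1 with WASF1 and WASF1 with WASL (14.6 ± 0.527). The order depended on the gene model. On the length of the canonical transcript, ABI2 stood at 22.6 in NT, above ABI1 at 17.8, and CYFIP2 went from 19.8 to 45.4 against 35.3 and 37.4 for CYFIP1.

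Summed over paralogs, the CYFIP position went from 32.7, 36.4 and 36.6 normalized CPM per kilobase in NT to 53.7, 51.2 and 51.8 in OXA. The groups did not overlap, and the mean was 1.48-fold higher. CYFIP2 made up 33.3% to 35.9% of the summed level in the NT libraries and 51.7% to 54.5% in the OXA libraries, so that the paralog with the smaller share in every untreated library had the larger one in every treated library. The other positions of the complex overlapped between groups, at 0.945-fold for NCKAP1, 0.971-fold for ABI, 1.01-fold for WASF and 0.985-fold for BRK1. Among the WASF genes, WASF2 held 68.0 ± 2.45% of the level in NT and 69.2 ± 2.42% in OXA, WASF1 29.3 ± 2.15% and 28.9 ± 2.07%, and WASF3 2.7 ± 0.374% and 1.91 ± 0.350%. The N-WASP level was 0.851-fold, without overlap.

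**Figure D4:**
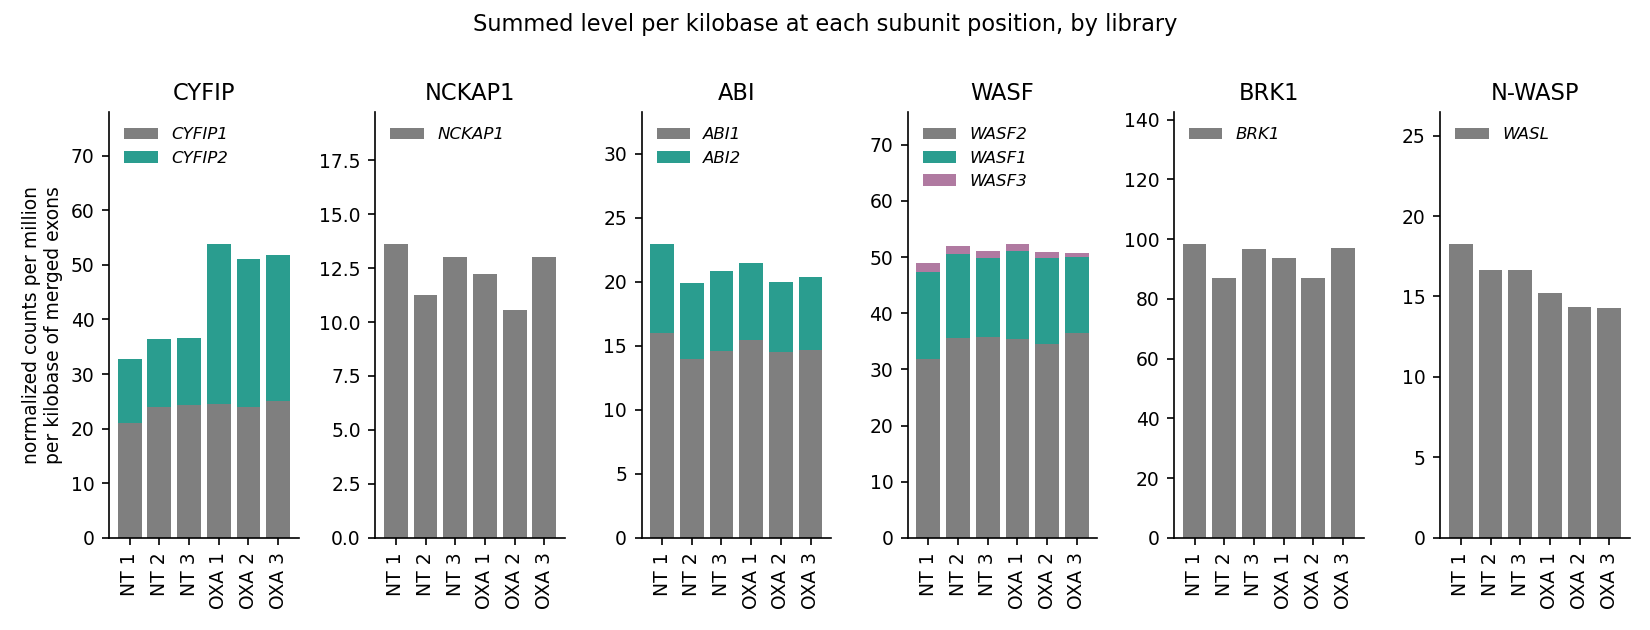
Summed level per kilobase of merged exons (normalized CPM per kilobase, y axes from 0, each position on its own scale) in the 6 libraries, stacked by paralog. The CYFIP bars grow from 35.2 on average in NT to 52.2 in OXA through the CYFIP2 part, while the NT and OXA bars of NCKAP1, ABI, WASF and BRK1 overlap in height.

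The paralogs of these subunits that blood cells use were nearly absent. Untreated libraries held 27, 15 and 39 reads of NCKAP1L, and treated libraries 21, 13 and 23. WAS had 9, 11 and 14 in NT and 11, 9 and 10 in OXA. ABI3 had at most 1 count in any library and was not tested.

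The wider branching pathway was followed through 102 genes in 10 lists, of which 91 passed the filter on low counts. Among them 3 were called higher and 1 lower (4.40%, against 5.07% of all genes tested), with a median log2 fold change of 0.010. With the replicate block 7 were higher and 11 lower (19.8%, against 23% of all genes). No Arp2/3 subunit was called of 10 tested by edgeR, with log2 fold changes between -0.28 (ACTR3B) and 0.23 (ARPC2), and DESeq2 and limma-voom called 0 as well, while 2 had an unadjusted p under 0.05. Of these subunits ARPC2 was higher and ACTR3B and ARPC5 were lower with the block. None of 16 tested Rac exchange factors, 8 activators of the WASH, WHAMM and JMY families, 14 linear actin nucleators or 2 WASP-interacting proteins was called by edgeR without the block. In these lists an unadjusted p under 0.05 was reached by 2 exchange factors, 2 nucleators and 0 of the others, DESeq2 called VAV1 higher, and limma-voom called 0. Over all genes tested, 21.7% had an unadjusted p under 0.05 in edgeR, DESeq2 called 9.05% and limma-voom called 4.84%. With the block 1 exchange factor (VAV1) was higher and 2 were lower (TIAM1 and ARHGEF6), and 2 nucleators were lower (FMNL3 and FHOD3).

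DNAI3 (listed under its older symbol WDR63) is a dynein-related protein described as an inhibitor of the Arp2/3 complex. Of the 11 tested branch regulators, edgeR called DNAI3 alone (9.09%, against 5.07% of all genes tested). It had 119, 63.4 and 93.1 normalized counts in NT and 384, 397 and 351 in OXA. The groups did not overlap, where 28.9% of all genes were separated in this way. The log2 fold change of DNAI3 was 2.04 ± 0.23 (edgeR adjusted p = 0.00521), with the call kept in all 6 fits that left out 1 library. ARPIN, an Arp2/3 inhibitor that opposes WAVE downstream of Rac, went from 1170 to 1301 normalized counts in NT to 871 to 954 in OXA. Its log2 fold change of -0.43 ± 0.099 missed the threshold (edgeR adjusted p = 0.0507) and passed with the block (adjusted p = 0.0161, range over the alternatives 0.0161 to 0.205). DESeq2 called ARPIN lower as well as DNAI3 higher. Of all genes, 23% were called with the block and 9.05% by DESeq2.

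Of the 18 tested lamellipodial proteins and kinases that bind WAVE, 1 was higher and 1 lower in edgeR and in limma-voom. DESeq2 called 1 higher and 2 lower, adding NHSL1, and with the replicate block 2 were higher and 3 lower, adding VASP (adjusted p = 0.0419), NHSL1 (0.0192) and RAPH1 (0.0271). The shares of all genes called were 5.07% in edgeR, 4.84% in limma-voom, 9.05% in DESeq2 and 23% with the block. SRGAP1 and SRGAP2 encode membrane-bending GTPase-activating proteins of the Slit-Robo pathway. SRGAP1 had 1420, 1380 and 1360 normalized counts in NT and 2246, 2048 and 2100 in OXA, which on the log2 scale was higher by 0.62 ± 0.087 (edgeR adjusted p = 0.0108). SRGAP2 had 3288, 3419 and 3469 in NT and 2662, 2587 and 2660 in OXA, with a log2 difference of -0.36 ± 0.077 (edgeR adjusted p = 0.0413). Neither gene's groups overlapped, where 28.9% of all genes were separated in this way, and the fitted differences of SRGAP1 and SRGAP2 had opposite signs. SRGAP3, of the same list, had a log2 fold change of 0.20 ± 0.14 and was not called (edgeR adjusted p = 0.456). Of the 6 fits without 1 library, SRGAP1 passed in 2 and SRGAP2 in 1, and over all 13 alternatives their adjusted p ranged up to 0.0858 and 0.178.

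Among the 4 genes of the translation partners of CYFIP, 1 was called (25%, against 5.07% of all genes tested): FXR2, a paralog of the FMRP gene. It had 2507, 2495 and 2436 normalized counts in NT and 3442, 3322 and 3045 in OXA, or 0.40 ± 0.084 on the log2 scale (edgeR adjusted p = 0.0413), and it passed in 1 of the 6 fits without 1 library. FMR1 itself had 2170, 1801 and 1876 normalized counts in NT and 1613, 1537 and 1682 in OXA. Its log2 fold change was -0.27 ± 0.10 (edgeR adjusted p = 0.177, and 0.0465 with the replicate block, where 23% of all genes were called). FXR1 and EIF4E, the rest of the list, were not called. Their log2 fold changes were 0.039 ± 0.11 (edgeR adjusted p = 0.878) and 0.052 ± 0.12 (edgeR adjusted p = 0.845).

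**Figure D5:**
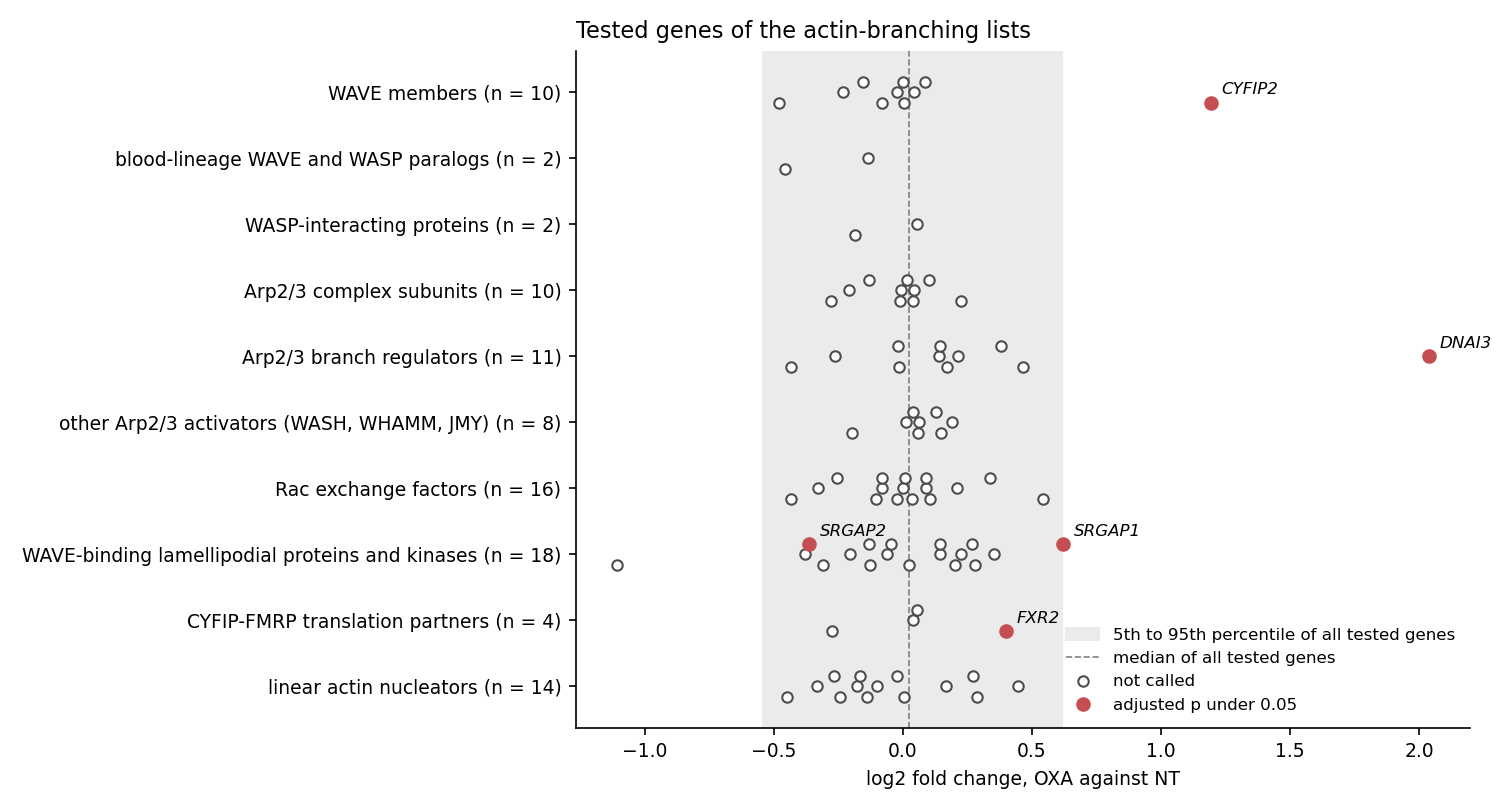
Log2 fold change of OXA against NT (x axis) for the tested genes of the member list and of 9 lists of the actin-branching pathway; filled points passed an adjusted p under 0.05 in edgeR, and the grey band spans the 5th to 95th percentile of all tested genes (-0.54 to 0.62). CYFIP2 (1.19) and DNAI3 (2.04) are the filled points well beyond the band.

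The genes whose log2 CPM followed CYFIP2 most closely over the 6 libraries were ABCA12, LINC00346, DGKA, BTG2 and DUSP5, out of 12066 genes with a mean of at least 50 normalized counts. Pearson's r with CYFIP2 lay between 0.998 (DUSP5) and 0.9998 (ABCA12) and is a description only, since the 6 libraries form the NT and the OXA cluster and share their depth scaling. Their log2 fold changes ranged from 0.35 for LINC00346 (edgeR adjusted p = 0.118) to 3.42 for ABCA12 (edgeR adjusted p = 0.000445). DGKA, a diacylglycerol kinase gene, was at 1.38, the antiproliferative gene BTG2 at 1.90 and DUSP5, an ERK phosphatase gene, at 0.65. No other member of the WAVE complex was among them.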

How the data were processed

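HCT116 libraries, 3 NT and 3 OXA, were sequenced as paired reads of 100 bases. The deposited raw counts per gene came from reads that, per the labels and the study's methods, the authors aligned to GRCh38 with STAR 2.7.5b; the labels also name Trimmomatic 0.32, RSEM 1.3.3 and DESeq2 2.13. The annotation and the strand setting of the counting were not given in the sources used here. The authors also deposited normalized values, a signal equal to the count times a factor specific to gene and library, used here only as an alternative.

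Counts were tested in edgeR 4.0.16 (R 4.3.3) by the quasi-likelihood test with TMM factors, after filterByExpr (minimum count 10, total 15), which left 13727 of 27942 genes. The Benjamini-Hochberg adjustment covered all of them, and a gene was called at an adjusted p under 0.05. Normalized counts are counts scaled to the mean effective library size. No block was used in the main fit; the study's methods name a pairwise DESeq2 comparison and give no model formula. Same-numbered libraries deviated together (r = 0.55, 0.54 and 0.31, against -0.47 to 0.090 for other pairs, limit 0.1). The replicate numbers come from the labels, which do not say that a number marks a shared culture or day. Support for pairing by number comes from these data alone. Calls that the block changed are given beside the results reported. Paralog ratios were tested by exact permutation (scipy 1.17.1), whose smallest p is 0.10.

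Alternatives were size factors of DESeq2 1.42.0, its Wald test, limma-voom (limma 3.58.1), no filter, a filter of 50 counts in 3 libraries, a fold change over 1.5 as well, the deposited factors, the replicate block and the omission of each library; the canonical transcript length was added after the data were seen. Exon lengths, positions and shared sequences came from GENCODE 44, promoters from RefSeq. Scripts were tested on simulated data. Counting errors cover counting alone. The members and gene lists were chosen with earlier results of these data known. One of the 10 pathway lists, counted in the totals, is not reported here. The named genes were all members, their blood paralogs, each list's called genes, DNAI3, and the 5 genes most like CYFIP2. ARPIN, FMR1, FXR1, EIF4E, NHSL1, SRGAP3, the overlapping neighbours and the genes that passed only with the block were named after their values were seen.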

Additional observations from a re-analysis of the deposited data

How the results depend on the processing

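The number of members called stayed at 1 under 13 of the alternatives, including each omission of a library, and was 3 with the replicate block, which changed no other member's call. The number of pathway genes called, 4, was 8 with DESeq2 (8.99% of those tested, against 9.05% of all genes) and 18 with the replicate block (19.8%, against 23%). It was 2 with the deposited factors, where 3.21% of all genes were called, and 2 with a fold change over 1.5 as well, where 3.41% were. It ranged from 1 to 7 over the omissions of 1 library: 7 without NT replicate 1, 2 without NT replicate 2 and 1 without NT replicate 3 or any of the OXA replicates. The share of all genes called moved as well, to 8.6%, 2.16% and 1.33% without NT replicates 1, 2 and 3. It was 0.611%, 0.908% and 1.22% without OXA replicates 1, 2 and 3. The cause was not tested.

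The signs of members near 0 turned. WASF1 (0.0011) was -0.0039 with DESeq2 size factors in edgeR and with DESeq2, -0.028 without a filter, -0.0046 with the strict filter, -0.0026 with limma-voom, -0.0011 with the replicate block and -0.0047 with the deposited factors, and -0.067 to 0.036 over the omissions. ABI1 (0.0040) was -0.0017 with DESeq2 size factors and with DESeq2, -0.025 without a filter, -0.0032 with the strict filter, and -0.070 to 0.060 over the omissions. With the deposited factors WASF2 was -0.028, CYFIP1 -0.011 and ABI2 0.12, and over the omissions WASF2 was -0.0079 to 0.063 and BRK1 -0.11 to 0.021. The fitted log2 fold changes of CYFIP2, WASL, WASF3 and NCKAP1 kept their direction under every alternative run, while the log2 level of NCKAP1 per kilobase ranged from -0.16 to 0.0031 over the omissions and was above 0 without OXA replicate 2.

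The log2 ratio of WASF1 to WASF2 turned from -0.046 to 0.024 with the deposited values and was -0.11 to 0.044 over the omissions, positive without NT replicate 1 or OXA replicate 3; that of ABI2 to ABI1 turned to 0.066 with the deposited values. The summed log2 level of ABI was 0.066 and that of WASF -0.040 with the deposited values. Taken as differences within same-numbered pairs, the replicate block cannot move the difference in a mean ratio, such as 1.11 for CYFIP2 to CYFIP1. The mean of the paired differences equals the difference of the group means by arithmetic. The smallest exact p of the block is 0.25.

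The 3 libraries per group keep every ratio above an exact p of 0.05, and WASF3, at 143 to 280 normalized counts, carried the largest counting error of the members.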
